A study of Mus musculus with 13 samples.

Results

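Matricellular proteins and fibronectin were described here through 10 genes in the mouse right ventricle: Postn, Tnc, Sparc, Thbs1, Thbs2, Thbs3, Thbs4, Comp, Cilp and Fn1. They were picked by name, and all 10 were found among the 26264 genes listed for every library. Each of them also passed the filter on low counts in every fit. Polyadenylated RNA of right ventricles had been sequenced from 7 libraries of mice with the F536C substitution knocked into Dsg2 and from 6 wild-type libraries. Desmoglein 2, the product of Dsg2, is a desmosomal cadherin that couples cardiomyocytes, and the series uses the knock-in as a model of arrhythmogenic cardiomyopathy with fibrosis and asks about PPAR-gamma signalling. The labels name no drug, age, sex, strain, litter or batch for any library, do not give the zygosity of the knock-in, and are silent on whether libraries come from separate animals. A p-value here thus reflects only the spread among the libraries.

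Matricellular proteins are secreted into the extracellular matrix without being its main load-bearing fibres. They bind collagens, fibronectin, growth factors and cell surface receptors, and so alter how cells attach to the matrix and how it is assembled. Most are low in the healthy adult heart and are made by fibroblasts, smooth muscle cells and other stromal cells after injury or pressure overload. Fibronectin is a fibrous glycoprotein rather than a matricellular one, and forms the early scaffold on which several of these proteins and the collagens are laid down.

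Dsg2 itself averaged 12.3 ± 2.51 TPM (a level scaled to the library and corrected for transcript length) in knock-in libraries and 19.5 ± 3.53 TPM in wild-type libraries (SD, n = 7 and 6), and fell by 1.08 on the log2 scale (edgeR's quasi-likelihood test, adjusted p = 6.96e-05), or by 0.97 without knock-in 4, 5 and 6 (edgeR adjusted p = 3.17e-05). A gene total cannot show the substitution, and the substitution sets no level of Dsg2 in advance, so these values do not check the labels. Cardiomyocyte markers had median log2 fold changes of -1.02 with 13 libraries and -0.76 with 10. Their part in the Dsg2 result was not tested. Library totals lay between 14498336 and 29848597 reads. Knock-in 4, 5 and 6 stood apart: fractional values made up 10.2% to 10.7% of their read numbers, against 3.07% to 3.79% for the remaining 10 libraries, and the labels name nothing that sets them apart. The read numbers of the 10 genes themselves were whole in all 13 libraries. Knock-in and wild type are therefore compared with all 13 libraries and with the 10 that remain without knock-in 4, 5 and 6. Levels below are TPM, while log2 fold changes are knock-in over wild type on TMM-scaled counts with their SE. On log2(TPM + 1) the median of all genes tested stood 0.38 higher in knock-in, against 0.08 on TMM-scaled counts, so ratios of TPM exceed the fitted folds.

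All 10 genes were higher in the knock-in right ventricle, and the groups did not overlap for any of them. With 13 libraries 10 of 10 rose at an adjusted p under 0.05, while 23.6% of the 14588 genes tested were called higher and 21% lower. Without knock-in 4, 5 and 6 again 10 of 10 rose, beside 22.3% of the 14518 genes tested. The median log2 fold change was 2.98 for the 10 genes and 0.08 for all genes with 13 libraries, and 2.31 and 0.02 without knock-in 4, 5 and 6. In every case each knock-in TPM lay above each wild-type TPM, which held for 23.6% of all genes tested. The same was true of TMM-scaled CPM (reads relative to the scaled library total), where it held for 8.6% of all genes. Of the 10, 9 rose at least 2-fold in either comparison, and Thbs2 did not. Among all genes tested, 1484 of 14588 were called at least 2-fold higher with 13 libraries and 836 of 14518 with 10. In bulk tissue a higher level can come from more cells of a type or from more RNA per cell, and fewer cells of a type and less RNA per cell cannot be told apart.

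**Figure D1:**
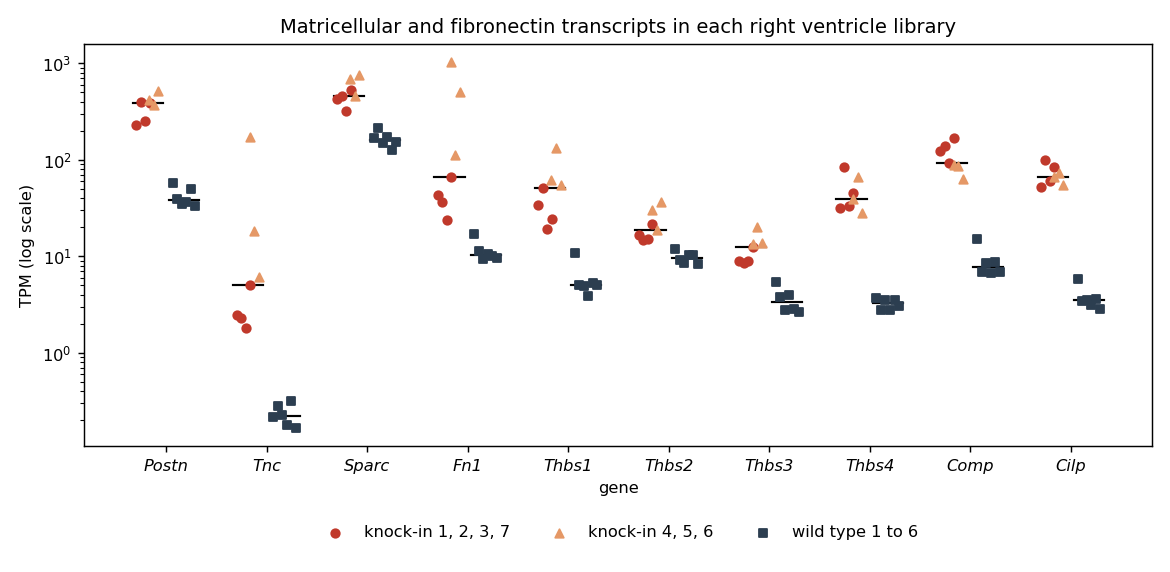
TPM of each gene in each library on a log axis, with knock-in libraries (circles for 1, 2, 3 and 7, triangles for 4, 5 and 6) left of wild-type libraries (squares), and a bar at the median of the 7 knock-in or the 6 wild-type libraries. Every knock-in point lies above every wild-type point of the same gene, and Fn1 and Tnc have the widest spread in knock-in, up to 1022 and 169.9 TPM.

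Postn encodes periostin, a secreted protein that binds collagen and promotes its cross-linking and that marks activated cardiac fibroblasts. Its level had a minimum of 229.9, a median of 390.4 and a maximum of 511 TPM in knock-in libraries, against 32.8, 38.3 and 57.5 TPM in wild-type libraries. The lowest knock-in library was thus well above the highest wild-type one. Postn rose by 2.68 ± 0.20 with 13 libraries (edgeR adjusted p = 1.57e-06) and by 2.53 ± 0.20 without knock-in 4, 5 and 6 (edgeR adjusted p = 1.96e-06). Knock-in 4, 5 and 6 averaged 433 ± 72.3 TPM and knock-in 1, 2, 3 and 7 averaged 318 ± 88.6 TPM, and the sets overlapped.

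Sparc encodes osteonectin, a collagen-binding glycoprotein that helps procollagen mature into fibres, and it had the highest mean level of the 10 genes in both genotypes. It measured 319.5, 455 and 761 TPM as minimum, median and maximum in knock-in libraries, against 126, 161 and 213 TPM in wild-type libraries. All 7 knock-in libraries were above all 6 wild-type ones. Its log2 fold change was 1.24 ± 0.17 with 13 libraries (edgeR adjusted p = 0.000115) and 1.02 ± 0.12 with 10 (edgeR adjusted p = 3.93e-05), among the smaller folds of the 10 although the gain in TPM was the largest, 356 TPM between the group means.

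Tnc encodes tenascin-C, a hexameric glycoprotein that weakens cell attachment to fibronectin and is scarce in the uninjured adult myocardium. Its level was 1.81, 5.03 and 169.9 TPM as minimum, median and maximum in knock-in libraries, against 0.168, 0.221 and 0.315 TPM in wild-type libraries. These levels rest on 117 to 20833 reads in knock-in libraries and on 15 to 29 reads in wild-type libraries. A single library, knock-in 4, held the maximum, with 18.1 TPM in knock-in 5 and 6.12 TPM in knock-in 6 next to it and 1.81 to 5.03 TPM in the remaining 4. The log2 fold change was 6.78 ± 1.42 with 13 libraries (edgeR adjusted p = 0.00245), 4.27 without knock-in 4 alone, and 3.25 ± 0.27 without knock-in 4, 5 and 6 (edgeR adjusted p = 2.82e-06). DESeq2's Wald test on the 13 libraries put it at 4.15, and the call held in each of these fits.

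Fn1 encodes fibronectin. It measured 23.8, 66.6 and 1022 TPM as minimum, median and maximum in knock-in libraries, against 9.44, 10.3 and 17.1 TPM in wild-type libraries. Within the knock-in group it was 1022 TPM in knock-in 4, 506 TPM in knock-in 6 and 111 TPM in knock-in 5, and between 23.8 and 66.6 TPM in knock-in 1, 2, 3 and 7. Even the lowest of these exceeded the highest wild-type library. Fn1 rose by 4.15 ± 0.94 with 13 libraries (edgeR adjusted p = 0.00378), by 3.10 without knock-in 4, and by 1.53 ± 0.22 without knock-in 4, 5 and 6 (edgeR adjusted p = 0.000212). These levels rest on 2068 to 150622 reads in knock-in libraries and on 1043 to 2445 reads in wild-type libraries.

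The thrombospondins fall into a trimeric group, Thbs1 and Thbs2, which inhibit the growth of blood vessels, and a pentameric group, Thbs3, Thbs4 and Comp. Thbs1, which encodes the thrombospondin of platelet granules and an activator of latent TGF-beta, had 19.2, 51.0 and 134 TPM as minimum, median and maximum in knock-in libraries, against 3.92, 5.09 and 10.8 TPM in wild-type libraries. The groups were separate, and knock-in 5 held the maximum. Thbs1 rose by 2.76 ± 0.41 with 13 libraries (edgeR adjusted p = 0.000234) and by 2.10 ± 0.34 with 10 (edgeR adjusted p = 0.000801). Markers of megakaryocytes and platelets, cells that store thrombospondin-1, summed to 96.9 to 131 TPM in knock-in 4, 5 and 6 and to 138 to 192 TPM in knock-in 1, 2, 3 and 7, against 118 to 136 TPM in wild type. Pf4 made up most of these sums and was not called between knock-in and wild type. Of 4 such markers tested with 13 libraries 1 was higher, and of 5 tested with 10 libraries 4 were higher (Ppbp, Gp1bb, Itga2b and Tubb1), and none was lower. Their part in the Thbs1 result was not tested.

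Thbs2 changed least of the 10. It measured 14.8, 18.8 and 36.2 TPM as minimum, median and maximum in knock-in libraries, against 8.38, 9.67 and 11.8 TPM in wild-type libraries, so the groups were separate but close. The log2 fold change was 0.74 ± 0.20 with 13 libraries (edgeR adjusted p = 0.00861) and 0.42 ± 0.12 with 10 (edgeR adjusted p = 0.00926). This was the only one of the 10 whose call was lost in any alternative of the knock-in and wild-type comparison: leaving knock-in 7 out of the 10 libraries gave 0.32 with an adjusted p of 0.0508 by edgeR, and an indicator for knock-in 4, 5 and 6 in the fit of all 13 gave 0.42 with an adjusted p of 0.0594 by edgeR.

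Thbs3, a family member studied mainly in the skeleton, had 8.62, 12.5 and 20.0 TPM as minimum, median and maximum in knock-in libraries, against 2.67, 3.33 and 5.39 TPM in wild-type libraries. It was the lowest thrombospondin in 6 of the 7 knock-in libraries. It rose by 1.34 ± 0.19 with 13 libraries (edgeR adjusted p = 0.000126) and by 1.06 ± 0.15 with 10 (edgeR adjusted p = 0.000135). One of its exons overlaps an exon of Mtx1 on the opposite strand by 179 bases in GENCODE M21, and the strand setting of the authors' counting is not given in the sources used here. Exons of Fn1, Thbs1 and Tnc also overlap exons on the opposite strand there, by up to 197, 110 and 104 bases. Mtx1 averaged 62.5 ± 4.24 TPM in knock-in 4, 5 and 6 and 22.3 ± 1.99 TPM in knock-in 1, 2, 3 and 7, against 19.2 ± 2.25 TPM in wild type. Mtx1 was called higher in knock-in 4, 5 and 6 than in knock-in 1, 2, 3 and 7 (log2 fold change 1.36, edgeR adjusted p = 1.17e-07). Without knock-in 4, 5 and 6 its log2 fold change over wild type was -0.19 (edgeR adjusted p = 0.0929). The part of Mtx1 reads in the Thbs3 result was not tested.

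Thbs4, a stress-induced thrombospondin of heart, muscle and tendon that acts inside the secretory pathway as well as in the matrix, varied widely within the knock-in group and still stood well above wild type. It measured 28.1, 38.95 and 84.2 TPM as minimum, median and maximum in knock-in libraries, against 2.75, 3.29 and 3.72 TPM in wild-type libraries. All knock-in libraries lay above the narrow wild-type range, and knock-in 2 held the maximum. Thbs4 rose by 3.42 ± 0.28 with 13 libraries (edgeR adjusted p = 3.33e-06) and by 3.53 ± 0.29 with 10 (edgeR adjusted p = 1.24e-05).

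The make-up of the Thbs1 to Thbs4 transcripts differed between genotypes, with Comp left out of this sum. The summed TPM of Thbs1 to Thbs4 was 135 ± 54.2 in knock-in libraries and 22.4 ± 4.66 in wild-type libraries (SD, n = 7 and 6). Thbs2 made up 7.91% to 27.2% of that sum in knock-in libraries, against 37.3% to 49.0% in wild-type libraries, where it was the highest of the 4 in every library. Thbs4 made up 21.1% to 53.1% in knock-in libraries, against 11.7% to 17.8% in wild-type libraries, and Thbs3 made up 5.43% to 12.0% in knock-in libraries, against 12.9% to 19.1% in wild-type libraries. For these 3 genes the shares of the genotypes did not overlap. The Thbs1 share did overlap, at 23.6% to 56.2% in knock-in libraries and 18.7% to 33.9% in wild-type libraries. Thbs4 was the largest component in knock-in 2, 3 and 7 and Thbs1 in knock-in 1, 4, 5 and 6. Thbs4 averaged 25.2 ± 3.54% in knock-in 4, 5 and 6 and 43.7 ± 7.53% in knock-in 1, 2, 3 and 7. These shares are a description with no test.

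**Figure D2:**
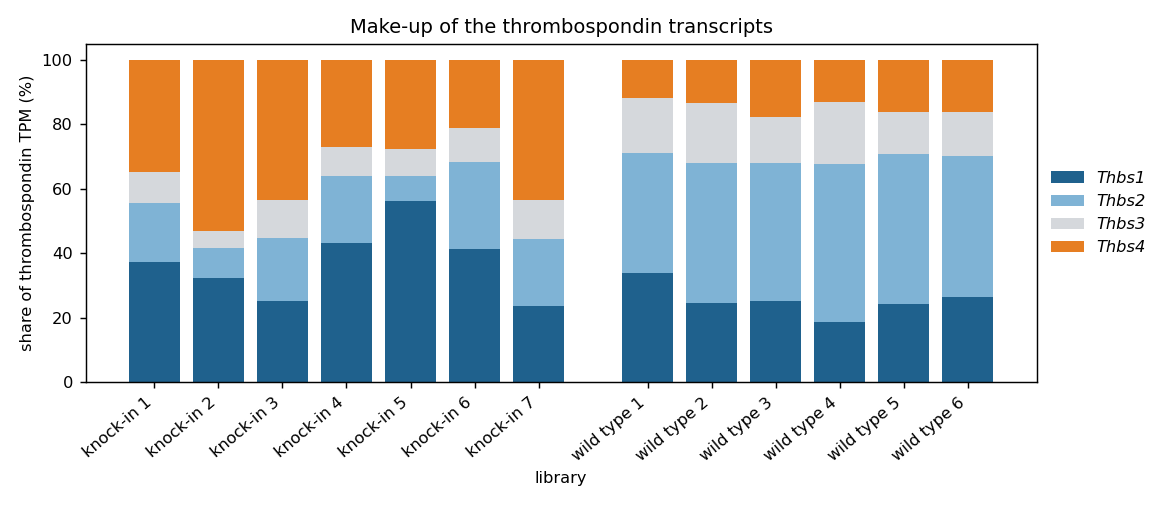
Share of the summed TPM of Thbs1, Thbs2, Thbs3 and Thbs4 that each gene took in each library, in percent, as stacked bars with the 7 knock-in libraries left of the 6 wild-type ones. Thbs2 takes 37.3% to 49.0% in wild type and no more than 27.2% in knock-in, while Thbs4 takes at least 21.1% in knock-in and at most 17.8% in wild type.

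Comp encodes cartilage oligomeric matrix protein, the fifth thrombospondin, which binds collagen fibrils in cartilage and tendon. Its level was 62.9, 92.3 and 167 TPM as minimum, median and maximum in knock-in libraries, against 6.67, 7.69 and 15.2 TPM in wild-type libraries. Even the lowest knock-in library, knock-in 6, was clear of wild type 1, the highest wild-type one. Comp rose by 3.19 ± 0.28 with 13 libraries (edgeR adjusted p = 5.13e-06) and by 3.48 ± 0.24 with 10 (edgeR adjusted p = 2.48e-06).

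Cilp encodes cartilage intermediate layer protein, a secreted protein of cartilage and of the fibrotic heart that is known to restrain TGF-beta and IGF-1 signalling. It measured 52.0, 66.9 and 98.9 TPM as minimum, median and maximum in knock-in libraries, against 2.85, 3.49 and 5.88 TPM in wild-type libraries. No knock-in library came near the wild-type range. Cilp had the smallest p of the 10, with a log2 fold change of 3.80 ± 0.21 (edgeR adjusted p = 1.11e-07) for 13 libraries and 3.92 ± 0.22 (edgeR adjusted p = 3.15e-07) for 10. The ratio of Comp to Cilp in TPM was 1.56 ± 0.445 in knock-in libraries and 2.32 ± 0.227 in wild-type libraries, and the range of 1.14 to 2.36 in knock-in libraries overlapped that of 1.98 to 2.59 in wild-type libraries.

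Comp and Cilp are named after cartilage, and Thbs4 is listed among markers of tendon and valve, so markers of these tissues were read beside them. Of 6 cartilage markers tested with 13 libraries, 2 rose and none fell, and of 5 tested without knock-in 4, 5 and 6, 1 rose and none fell. Their 10 listed markers summed to 39.5 to 102 TPM in knock-in 4, 5 and 6 and to 11.9 to 22.8 TPM in knock-in 1, 2, 3 and 7, against 6.26 to 11.3 TPM in wild type. The defining cartilage collagen Col2a1 averaged 25.6 TPM in knock-in 4, 5 and 6 and 0.0665 TPM in knock-in 1, 2, 3 and 7, against 0.0142 TPM in wild type. Col2a1 passed the filter on low counts in no fit. Its mean in knock-in 4, 5 and 6 thus cannot be read as a level of each of these libraries. Sox9, a transcription factor of cartilage and other connective tissue, averaged 25.0 TPM in knock-in 4, 5 and 6 and 5.65 TPM in knock-in 1, 2, 3 and 7, against 1.74 TPM in wild type, and rose by 1.30 without knock-in 4, 5 and 6 (edgeR adjusted p = 0.000211). The part of such cells in the Comp and Cilp results was not tested. Of the tendon and valve markers, 4 of 6 rose in either comparison and none fell, and Thbs4 is 1 of them.

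In wild type the order of levels per length was Sparc, Postn, Fn1, Thbs2, Comp, Thbs1, Cilp, Thbs3, Thbs4 and Tnc. Several neighbours in that order did not separate: Fn1 was above Thbs2 in 5 of 6 libraries, Thbs2 above Comp in 4 of 6, Cilp above Thbs3 in 4 of 6 and Thbs3 above Thbs4 in 3 of 6. In knock-in 1, 2, 3 and 7 the order was Sparc, Postn, Comp, Cilp, Thbs4, Fn1, Thbs1, Thbs2, Thbs3 and Tnc, in which Thbs4 was above Fn1 in 2 of 4 libraries, Fn1 was above Thbs1 in 3 of 4, and the other neighbours kept their order in all 4. Cilp and Thbs4 thus stood above Thbs2 in knock-in 1, 2, 3 and 7, and below it in wild type. The 10 genes summed to between 828 and 2604 TPM in knock-in libraries, against 220.2 to 297 TPM in wild-type libraries. Fn1 took 39.3% of this sum in knock-in 4, 24.9% in knock-in 6 and 8.26% in knock-in 5, and 2.84% to 4.94% in knock-in 1, 2, 3 and 7, against 3.79% to 5.74% in wild type.

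Knock-in 4, 5 and 6 differed from knock-in 1, 2, 3 and 7 in 6 of the 10 genes. Fn1, Tnc, Thbs1, Thbs2 and Thbs3 were higher and Comp was lower in knock-in 4, 5 and 6, whereas Postn, Sparc, Thbs4 and Cilp did not pass the test. Across all 15551 genes tested in this contrast 26.5% were called higher and 27.7% lower, so 5 of 10 higher and 1 of 10 lower stand beside a large background. The median log2 fold change was 0.50 for the 10 genes and -0.10 for all genes. The labels do not make this split, which follows the share of read numbers that were not whole.

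Fn1 averaged 547 ± 457 TPM in knock-in 4, 5 and 6 and 42.7 ± 17.9 TPM in knock-in 1, 2, 3 and 7, a log2 fold change of 3.68 ± 0.58 (edgeR adjusted p = 0.000303) that was 2.76 without knock-in 4. Tnc averaged 64.7 ± 91.3 TPM in knock-in 4, 5 and 6 and 2.90 ± 1.45 TPM in knock-in 1, 2, 3 and 7, with 4.65 ± 0.94 on the log2 scale (edgeR adjusted p = 0.00183) and 2.00 without knock-in 4. For both genes the lowest of knock-in 4, 5 and 6 was above the highest of knock-in 1, 2, 3 and 7. The calls of Fn1 and Tnc held with each knock-in library left out in turn.

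Thbs1 averaged 83.7 ± 43.6 TPM in knock-in 4, 5 and 6 and 32.1 ± 13.95 TPM in knock-in 1, 2, 3 and 7, a log2 fold change of 1.21 ± 0.40 (edgeR adjusted p = 0.0228). Thbs2 had 0.63 ± 0.20 (edgeR adjusted p = 0.0142) and Thbs3 had 0.55 ± 0.19 (edgeR adjusted p = 0.0220). Comp averaged 79.4 ± 14.3 TPM in knock-in 4, 5 and 6 and 130.1 ± 31.1 TPM in knock-in 1, 2, 3 and 7, and fell by 0.82 ± 0.27 (edgeR adjusted p = 0.0209). These 4 calls each depended on single libraries: Thbs1 lost its call without knock-in 3, 5 or 7, Thbs2 without 4 or 6, Thbs3 without 1, 2, 3 or 5, and Comp without 6 or 7. Sparc had 0.45 ± 0.19 (edgeR adjusted p = 0.0554), and it passed with DESeq2 size factors (adjusted p = 0.0327) and without knock-in 5 or 7. Thbs4 had -0.28 ± 0.35 (edgeR adjusted p = 0.502), Cilp -0.32 ± 0.24 (edgeR adjusted p = 0.266) and Postn 0.31 ± 0.23 (edgeR adjusted p = 0.270).

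**Figure D3:**
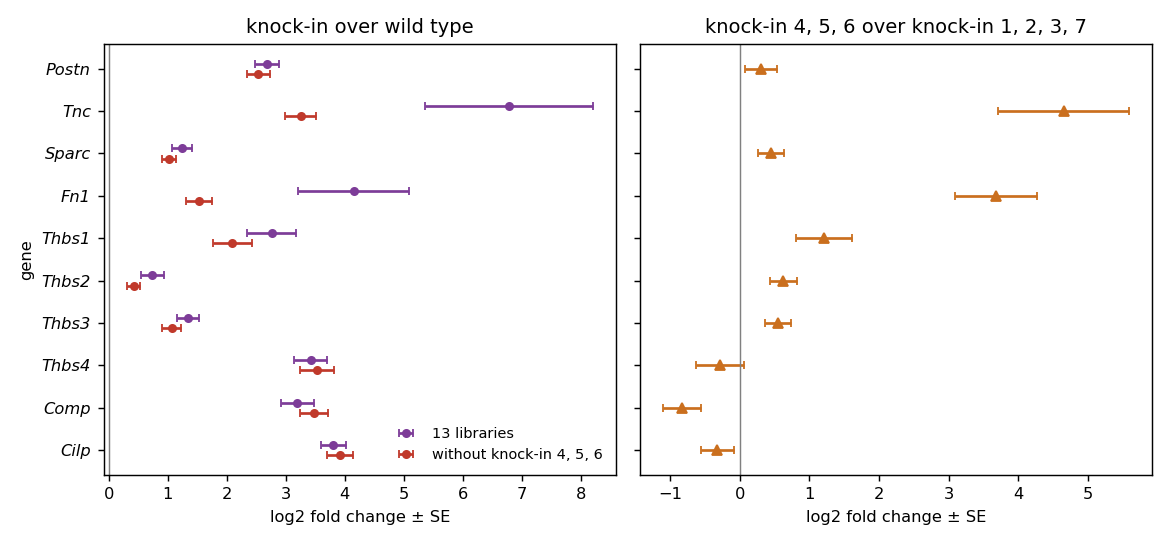
Log2 fold changes of the 10 genes with SE as bars, on TMM-scaled counts; the left panel gives knock-in over wild type with all 13 libraries and without knock-in 4, 5 and 6, and the right panel knock-in 4, 5 and 6 over knock-in 1, 2, 3 and 7. On the left the 2 estimates are closest for Postn, Cilp and Thbs4 and farthest apart for Tnc (6.78 and 3.25) and Fn1 (4.15 and 1.53). On the right Comp lies below 0 at -0.82.

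Markers of other cells moved with the same split. Epithelial markers summed to 2209 to 3348 TPM in knock-in 4, 5 and 6 and to 40.6 to 102.9 TPM in knock-in 1, 2, 3 and 7, against 31.6 to 110.2 TPM in wild type, and 8 of 11 were higher and 1 lower in knock-in 4, 5 and 6 than in the other knock-in libraries. Activated fibroblast and myofibroblast markers summed to 929 to 944 TPM in knock-in 4, 5 and 6 and to 462 to 671 TPM in knock-in 1, 2, 3 and 7, against 190.3 to 294 TPM in wild type, with 6 of 10 higher and 2 lower in knock-in 4, 5 and 6. Cardiomyocyte markers were lower there for 9 of 10, endothelial markers for 8 of 8 and macrophage markers for 6 of 9. General fibroblast markers were lower there for 4 of 10, and none was higher. Beside these counts, 26.5% of all genes tested in this contrast were called higher and 27.7% lower. The part of these cells in the Fn1, Tnc, Thbs1, Thbs2, Thbs3 and Comp differences was not tested.

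Between knock-in and wild type, activated fibroblast and myofibroblast markers rose for 9 of 10 with 13 libraries and for 7 of 10 without knock-in 4, 5 and 6, and none fell. General fibroblast markers moved less: with 13 libraries 1 of 10 rose and 1 fell, and over 10 libraries 5 rose and 1 fell. Macrophage markers rose for 7 of 9 with 13 libraries and 9 of 9 with 10. Cardiomyocyte markers fell for 9 of 10 with 13 libraries and 7 of 10 with 10, and their sum was 30945 to 52995 TPM in knock-in libraries, against 55847 to 76723 TPM in wild-type libraries and they were abundant in every library. Epithelial markers rose for 4 of 7 with 13 libraries and for 0 of 7 with 10, endothelial markers for 0 of 8 and 2 of 8, and Schwann cell markers for 3 of 7 and 2 of 7, with none lower in any of these. Of 8 mural markers 2 were higher and 2 lower over 13 libraries, and 3 higher and 1 lower over the 10. These counts, and those of platelet, cartilage and tendon markers above, stand beside the shares of all genes tested. Those were 23.6% higher and 21% lower over 13 libraries, and 22.3% higher and 21.3% lower over the 10. The mural counts over 13 libraries lay near these shares. Scaling moved the marker counts. When libraries were scaled by their totals, fibroblast markers were higher for 6 of 10 over 13 libraries and 7 of 10 over 10 libraries, mural markers for 5 of 8 in both, endothelial markers for 1 of 8 and 5 of 8, and epithelial markers for 4 of 7 and 2 of 7. Activated fibroblast markers were then higher for 9 of 10 and 8 of 10, macrophage markers for 9 of 9 in both, and cardiomyocyte markers lower for 7 of 10 and 6 of 10. With that scaling 6110 of the 14588 genes tested were called higher over 13 libraries, and 6049 of 14518 over the 10. The marker counts by library totals stand beside that larger share of all genes. No marker of any list was at 0 in all libraries. These changes ran alongside the rise of the 10 genes, and their part in it was not tested.

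Fn1, Tnc and Postn transcripts are alternatively spliced, and the deposited tables give for each gene a transcript length that varies between libraries for 7 of the 10 genes. It was taken as the mean over a gene's transcripts weighted by their abundance, and it says which length prevailed and not how much was made. Postn had a longer mean transcript in knock-in: 3194, 3206 and 3219 bases as minimum, median and maximum in knock-in libraries, against 3163, 3176 and 3186 bases in wild-type libraries. The groups did not overlap. The difference was 0.951% (limma on log2 length, adjusted p = 0.00684), and it was called without knock-in 4, 5 and 6 (adjusted p = 0.0152) and with each library left out in turn. Of 6636 genes with a varying length 1.1% were called longer and 0.558% shorter with 13 libraries, and 0.49% longer without knock-in 4, 5 and 6. Of the 10 genes only Postn was called. With the effective length, which also corrects for fragment size, Postn was no longer called (limma adjusted p = 0.847).

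Fn1 and Tnc were longer in knock-in 4, 5 and 6. Fn1 had 8133, 8056 and 8180 bases in knock-in 4, 5 and 6 and 7886, 7831, 7917 and 7877 bases in knock-in 1, 2, 3 and 7, against 7870 to 7905 bases in wild type. Tnc had 6732, 6341 and 6547 bases in knock-in 4, 5 and 6 and 5804, 5771, 5850 and 5909 bases in knock-in 1, 2, 3 and 7, against 5652 to 6059 bases in wild type. In both genes knock-in 4, 5 and 6 lay above all other libraries, while knock-in 1, 2, 3 and 7 overlapped wild type. Between the 2 sets of knock-in libraries Fn1 was 3.11% longer (limma adjusted p = 0.000167) and Tnc 12.1% longer (limma adjusted p = 0.00111), in a contrast where 4.66% of genes were called longer and 5.98% shorter. This contrast of lengths was chosen after the values were seen. Both calls held with each knock-in library left out. The effective length was not tested in this contrast. Between knock-in and wild type without knock-in 4, 5 and 6 the differences were -0.173% for Fn1 (limma adjusted p = 0.846) and -0.363% for Tnc (limma adjusted p = 0.969).

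**Figure D4:**
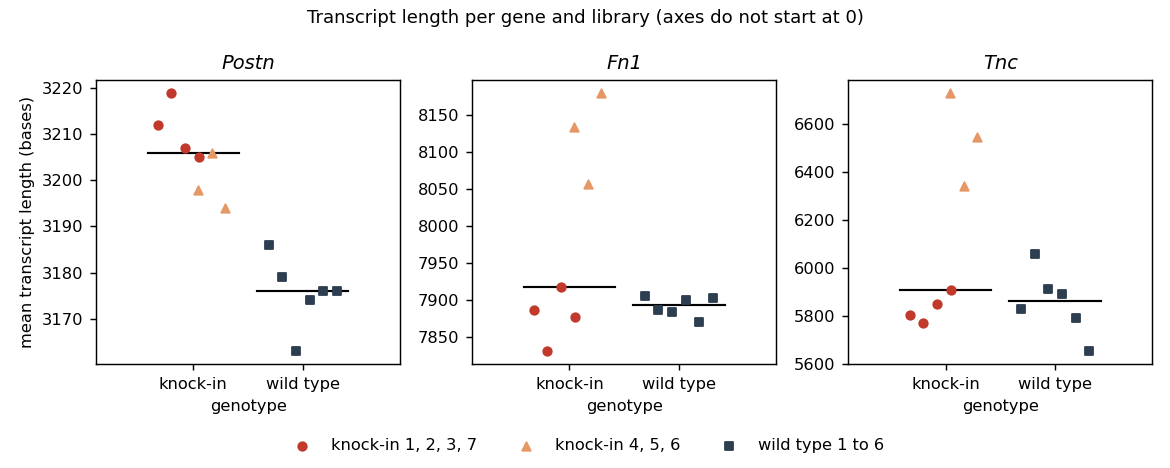
Mean transcript length in bases of Postn, Fn1 and Tnc in each library, with knock-in left of wild type in each panel, a bar at each group's median, and axes that do not start at 0. Postn is longer in all 7 knock-in libraries than in any wild-type one, whereas Fn1 and Tnc are longer in knock-in 4, 5 and 6 (triangles) only, at 8056 to 8180 and 6341 to 6732 bases.

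The cassette exons that coding transcripts can skip were read from GENCODE M21 on GRCm38, an older build than the one the authors used. Fn1 has 2 of them: the extra domain A exon of 270 bases, present in 4 of 7 full-length coding transcripts, and the extra domain B exon of 273 bases, present in 1 of 7. Each encodes 1 fibronectin type III repeat that plasma fibronectin lacks, and both are shown because Fn1 differed by 245 bases in mean length between the sets of knock-in libraries, less than either exon. They are printed in lower case, 5′ to 3′ on the minus strand, with no part singled out. The deposited values are per gene and do not show which exon, start or end made the difference.
Fn1 extra domain A exon, chr1:71603660-71603929 (GRCm38, minus strand): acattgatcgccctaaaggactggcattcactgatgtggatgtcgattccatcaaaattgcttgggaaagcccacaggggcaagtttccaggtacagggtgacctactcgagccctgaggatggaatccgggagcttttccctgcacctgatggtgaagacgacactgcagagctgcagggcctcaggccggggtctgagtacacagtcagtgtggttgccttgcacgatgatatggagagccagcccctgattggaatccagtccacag
Fn1 extra domain B exon, chr1:71613763-71614035 (GRCm38, minus strand): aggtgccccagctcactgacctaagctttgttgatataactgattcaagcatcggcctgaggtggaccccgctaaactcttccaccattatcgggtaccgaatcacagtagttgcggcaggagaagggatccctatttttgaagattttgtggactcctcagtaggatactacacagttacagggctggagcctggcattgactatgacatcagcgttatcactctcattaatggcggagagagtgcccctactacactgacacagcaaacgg
Tnc has a skippable exon of 273 bases at chr4:63984460-63984732 (minus strand), present in 1 of 3 full-length coding transcripts, and Postn has exons of 81 and 84 bases at chr3:54380412-54380492 and chr3:54385671-54385754 (plus strand), each present in 2 of 4. The Postn difference of 30.2 bases between the group means was smaller than either exon. In knock-in 1, 2, 3 and 5 the mean Postn length was 3206 to 3219 bases. That was above the longest full-length coding Postn transcript of this annotation, 3205 bases. Tnc differed by 706 bases between the sets of knock-in libraries, more than its exon of 273 bases, and all its mean lengths, 5652 to 6732 bases, lay below the shortest full-length coding transcript of this annotation, 6833 bases.

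Promoters of 7 of the 10 genes were found in the RefSeq table of GRCm38.p6, which holds 250 bases before to 50 after each start. Thbs1, Comp and Fn1 had no entry. The 4 short motifs searched on both strands were AP-1 (TGANTCA), TEAD (GGAATG), SP1 (GGGCGG), and TATAAA for the TATA box. AP-1 matched none of the 9 promoters of these 7 genes and 7.81% of all 32851 promoters. TEAD matched 1 of the 9 and 14.7%, SP1 4 and 35.7%, and TATA 4 and 13.6%. Counted by gene, TEAD matched 1 of the 7, SP1 3 and TATA 3. The promoters of Postn, Cilp and Thbs4 are shown because the log2 fold changes of these genes hardly differed with and without knock-in 4, 5 and 6. Capitals mark the motif matches: TATA in Postn, and 2 TEAD and 3 SP1 matches in Thbs4, while Cilp has none. Postn has a second start in the table, upstream, whose window holds no match.
Postn, chr3:54360857-54361156 (GRCm38.p6, plus strand): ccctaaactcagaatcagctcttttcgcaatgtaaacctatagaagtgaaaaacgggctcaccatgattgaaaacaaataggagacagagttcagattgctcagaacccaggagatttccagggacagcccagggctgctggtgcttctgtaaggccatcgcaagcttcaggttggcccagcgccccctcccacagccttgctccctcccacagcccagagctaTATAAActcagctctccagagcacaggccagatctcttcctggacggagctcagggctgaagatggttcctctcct
Cilp, chr9:65264930-65265229 (GRCm38.p6, plus strand): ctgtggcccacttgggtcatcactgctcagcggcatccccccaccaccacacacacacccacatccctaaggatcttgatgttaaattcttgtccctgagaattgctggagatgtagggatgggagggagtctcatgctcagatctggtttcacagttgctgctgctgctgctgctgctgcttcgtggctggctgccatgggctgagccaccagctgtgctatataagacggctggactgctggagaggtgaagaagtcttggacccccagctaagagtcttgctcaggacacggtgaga
Thbs4, chr13:92794769-92795068 (GRCm38.p6, minus strand): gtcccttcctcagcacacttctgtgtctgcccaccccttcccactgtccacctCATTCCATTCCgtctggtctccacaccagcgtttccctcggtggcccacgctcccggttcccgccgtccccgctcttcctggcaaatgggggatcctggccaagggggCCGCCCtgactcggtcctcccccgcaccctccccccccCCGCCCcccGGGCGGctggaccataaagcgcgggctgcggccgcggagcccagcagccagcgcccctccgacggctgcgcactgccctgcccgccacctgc
The 3 genes that rose together thus shared none of the 4 exact strings in these windows. TATAAA misses near variants, such as the tatataag in the printed Cilp window. A missing match therefore does not mean that a TATA box is missing. A match is a string of letters and not a bound site.

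Genes of the same pathway were read from lists chosen with earlier results of these data known. Of 25 other matricellular and related secreted proteins 19 could be tested with 13 libraries, and 11 rose and 2 fell. Without knock-in 4, 5 and 6, 12 of 20 rose and 1 fell. Beside this and the following lists, 23.6% of all genes tested were called higher and 21% lower with 13 libraries. With 10 libraries these shares were 22.3% and 21.3%. The median log2 fold change of this list was 0.79 with 13 libraries and 0.81 with 10, against 0.08 and 0.02 for all genes. Spp1, which encodes osteopontin, a cytokine and matrix protein of macrophages and activated fibroblasts, averaged 189 ± 213 TPM in knock-in libraries and 1.06 ± 0.318 TPM in wild-type libraries, with a log2 fold change of 6.99 (edgeR adjusted p = 1.59e-05) and of 7.34 without knock-in 4, 5 and 6 (edgeR adjusted p = 0.000120). Ccn5 averaged 94.0 ± 14.5 TPM in knock-in libraries and 6.04 ± 2.36 TPM in wild-type libraries, with 3.53 (edgeR adjusted p = 6.23e-07) and 3.67 over the 10 libraries (edgeR adjusted p = 1.76e-06). Ccn2, the connective tissue growth factor, had 2.48 (edgeR adjusted p = 2.59e-05) and 2.64 over the 10 libraries (edgeR adjusted p = 5.30e-05). Vtn, which encodes the adhesive plasma protein vitronectin, had -0.59 (edgeR adjusted p = 0.0110) and -0.46 over the 10 libraries (edgeR adjusted p = 0.0455). Spock2, a proteoglycan related to Sparc, had -0.51 (edgeR adjusted p = 0.0425), and over the 10 libraries it was not called (-0.30, edgeR adjusted p = 0.197). Neither was called over 13 libraries when libraries were scaled by their totals (edgeR adjusted p = 0.105 and 0.261).

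Of 21 receptors for these proteins, 15 were higher and 1 lower over 13 libraries, and 14 were higher and 2 lower over 10, with median log2 fold changes of 0.98 and 0.77. Itgb5, an integrin subunit that binds periostin and vitronectin, averaged 82.1 ± 9.34 TPM in knock-in libraries and 30.6 ± 7.03 TPM in wild-type libraries, with a log2 fold change of 1.01 (edgeR adjusted p = 3.27e-05). Lrp1, the endocytic receptor that clears thrombospondins, had 1.02 (edgeR adjusted p = 9.62e-05), and Sdc4, a syndecan that acts beside integrins on fibronectin, had 1.11 (edgeR adjusted p = 0.000109). Over the 10 libraries Itgb5 had 1.08, Lrp1 1.18 and Sdc4 1.00, with edgeR adjusted p of 7.75e-06, 1.96e-05 and 3.96e-05. Cd36, a receptor of thrombospondin-1 that is also the fatty acid transporter of cardiomyocytes, averaged 716 ± 191 TPM in knock-in libraries and 1121 ± 232 TPM in wild-type libraries, and fell by 1.09 (edgeR adjusted p = 0.00138), or by 0.81 over the 10 libraries (edgeR adjusted p = 0.00483). The ligand Thbs1 and its receptor Cd36 thus moved in opposite directions, also with libraries scaled by their totals, where Cd36 had -0.83.

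Partners in matrix assembly rose for 16 of 19 with 13 libraries and for 18 of 19 with 10, and none fell, with medians of 1.17 and 1.16. Lox, which cross-links collagen, averaged 23.1 ± 8.13 TPM in knock-in libraries and 3.67 ± 0.887 TPM in wild-type libraries, with a log2 fold change of 2.24 (edgeR adjusted p = 2.81e-05). Bgn, which encodes the small proteoglycan biglycan, had 1.68 (edgeR adjusted p = 4.16e-05) and Fbn1, the microfibril protein fibrillin-1, had 1.08 (edgeR adjusted p = 3.60e-05). Over the 10 libraries Lox had 2.51, Bgn 1.97 and Fbn1 0.99, with edgeR adjusted p of 2.00e-05, 1.72e-06 and 9.02e-06. Of 11 TGF-beta ligands, latent complex proteins and their activators, 7 were higher and 1 lower over 13 libraries, and 8 were higher and 1 lower over 10. Ltbp2 averaged 22.8 ± 6.64 TPM in knock-in libraries and 1.19 ± 0.431 TPM in wild-type libraries, with 3.84 (edgeR adjusted p = 9.23e-07). Tgfb3 had 1.57 (edgeR adjusted p = 3.01e-06) and Ltbp3 had 1.04 (edgeR adjusted p = 1.47e-05). Over the 10 libraries Ltbp2 had 4.04, Tgfb3 1.64 and Ltbp3 1.07, with edgeR adjusted p of 2.91e-06, 7.77e-07 and 1.46e-05. Ltbp1 had -0.34 (edgeR adjusted p = 0.00968) and -0.36 over the 10 libraries (edgeR adjusted p = 0.00233), but its TPM averaged 15.1 ± 1.83 in knock-in libraries and 14.2 ± 1.36 in wild-type libraries, and with library totals it had -0.09 (edgeR adjusted p = 0.403), so its direction depends on the scaling.

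Within a genotype the 10 genes also varied together to different degrees. Over the 10 libraries without knock-in 4, 5 and 6, with log2 CPM centred within each genotype, 42 of the 45 pairs had a Pearson r above 0, with a median of 0.48. The median r of the 10 genes with any gene tested was -4.61e-05. The points share library scaling and depth, and no p is given. They include wild type 1, which lay far from its group for Thbs1, Cilp, Comp and Fn1. Its part in these r was not tested. The closest pairs were Postn with Cilp (r = 0.92), Cilp with Comp (r = 0.82) and Thbs4 with Cilp (r = 0.79).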

How the data were processed

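Polyadenylated RNA of mouse right ventricles had been made into libraries with a stranded Illumina kit, per the labels' protocols. DRAGEN and GRCm39 (mm39) are named in the submitters' processing notes, while no source used here gives the annotation or the strand setting. The authors deposited 1 gene table per library with expected counts (estimated read numbers, which need not be whole), TPM, and length and effective length in bases, per the file headers. The titles gave each library's group and replicate number.

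The expected counts were rounded to whole numbers, filtered with filterByExpr, scaled by TMM and tested with edgeR 4.0.16 (R 4.3.3) by the quasi-likelihood test with robust dispersion and no covariate. P-values were adjusted by Benjamini-Hochberg over all genes tested, and a call is an adjusted p under 0.05. Lengths were tested with limma 3.58.1 on the log2 scale over genes whose length varied. DESeq2 1.42.0 was an alternative. Shares, ratios and sums of TPM were described with no test. No pair of libraries was alike within sampling noise (the lowest chi-square per degree of freedom was 7.19), and the fits were tested on simulated data. A library was set apart where its share of fractional read numbers (tolerance 1e-09) exceeded 2 times the median.

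The 10 genes, the lists and the rule for naming genes were chosen with earlier results of these data known. The rule names the 10 genes, Dsg2, up to 3 called members of each list by smallest p, called members that moved against their list, and the 2 genes most like each of the 10. Mtx1, Col2a1, Sox9, Pf4 and the other platelet markers named were added after their values were seen. Samples with the same replicate number in both groups did not deviate together, so the numbers were not used to pair them. The totals of 14498336 to 29848597 reads give the precision of the counts.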

Additional observations from a re-analysis of the deposited data

Results flagged for a closer look

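Of 28 sets of values tested for a library far from its group (TPM of the 10 genes and transcript length of 4 of them, in each genotype), 6 had one. The nominal rate of about 1 in 20 holds for independent sets. These sets share libraries and hold genes that vary together, so 6 of 28 cannot be set against that rate. In knock-in libraries Tnc measured 169.9 TPM in knock-in 4, with the others at 1.81 to 18.1 TPM, and Thbs1 measured 133.8 TPM in knock-in 5, with the others at 19.2 to 62.4 TPM. The remaining 4 all belonged to wild type 1. It had 10.8 TPM of Thbs1 with the other wild-type libraries at 3.92 to 5.31 TPM, and 5.88 TPM of Cilp with the others at 2.85 to 3.58 TPM. It also had 15.2 TPM of Comp with the others at 6.67 to 8.69 TPM, and 17.1 TPM of Fn1 with the others at 9.44 to 11.2 TPM. Without wild type 1 the log2 fold changes over the other 12 libraries were 2.99 for Thbs1, 3.95 for Cilp, 3.38 for Comp and 4.28 for Fn1, and all 10 genes were called higher.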

How the results depend on the processing

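Over the 13 libraries 249 combinations of a gene and an alternative kept their direction and call and 1 did not, and over the 10 libraries 198 did and 2 did not. The exceptions were all Thbs2, which lost its call with an indicator for knock-in 4, 5 and 6 (0.42, edgeR adjusted p = 0.0594), with the replicate block over 10 libraries (0.41, edgeR adjusted p = 0.0506) and without knock-in 7. With each library left out the number of the 10 genes called higher was 10 with 13 libraries and 9 to 10 with 10. Tnc moved most: 4.58 with the replicate block, 4.49 on log2(TPM + 0.1) and 2.86 on log2(TPM + 1), and Fn1 was 2.81 with the block. The block of replicate numbers changed no other call of the 10 genes; same-numbered libraries correlated at -0.11 to 0.085, so the numbers did not pair them.

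Counts over all genes depended on the scaling. With 13 libraries, genes called higher numbered 6110 with library totals, 7665 on log2(TPM + 1), 7840 on log2(TPM + 0.1), 7121 with a mean of at least 1 TPM, 2270 with the replicate block and 1676 at an adjusted p under 0.01, against 1661, 1087, 1098 and 1029 called lower under the first 4 and 2006 at 0.01. With 10 libraries the same settings gave 6049, 7737, 7704, 7035, 1385 and 2146 higher, and 1528, 924, 933 and 876 lower under the first 4 with 1400 under the block. Library totals put the median of all genes at 0.33 with 13 libraries.

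Between the sets of knock-in libraries, fitting the 7 alone gave 2852 genes lower. With 1 library left out, 3 to 5 of the 10 genes were higher and 0 to 1 lower, and Thbs4 ranged from -0.61 to 0.16, reversed without knock-in 2 (edgeR adjusted p = 0.618). For lengths the effective length left 0 of the 10 genes longer and 13 genes longer and 7 shorter in all, and turned Thbs3 to 0.0043 on the log2 scale. The 10 libraries gave 32 longer and 8 shorter, with Tnc at -0.0052 and Fn1 at -0.0025. Leaving out 1 library gave 28 to 89 longer and 12 to 48 shorter. Wild-type Tnc rests on 15 to 29 reads per library.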

Other observations

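For each of the 10 genes the 2 genes whose level followed it most closely within genotypes were found over the 10 libraries without knock-in 4, 5 and 6, by Pearson r of log2 CPM centred within genotype. The 10 points share scaling and depth, each pair was picked from all genes tested, and the names are a description with no p. Thbs2 followed Col14a1 (r = 0.95), a fibril-associated collagen, and Tmem45a (r = 0.94), Comp followed Abi3bp (r = 0.95) and Serpinb9b (r = 0.95), Thbs1 followed Ccn3 (r = 0.96), another matricellular gene, and Susd5 (r = 0.96). Thbs4 followed Fabp4 (r = 0.96), a fatty acid carrier of endothelial cells and adipocytes, and Zfp469 (r = 0.95). Postn followed Atad5 and Pnp, Tnc followed Zc3h12d and Cers5, Thbs3 followed Dnm1 and Elmo1, Sparc followed Med15 and Gak, Cilp followed Clstn3 and Rad18, and Fn1 followed Sh3bgrl3 and Pard6g, at r of 0.91 to 0.97.

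Fibronectin relative to periostin separated the sets of knock-in libraries. The ratio of Fn1 to Postn in TPM was 0.302 to 2.44 in knock-in 4, 5 and 6 and 0.0919 to 0.190 in knock-in 1, 2, 3 and 7, against 0.200 to 0.297 in wild type. The ratio in knock-in 1, 2, 3 and 7 was thus below every wild-type library, and in knock-in 4, 5 and 6 above every one.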
